A study of Saccharomyces cerevisiae with 11 samples.

Results

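Of 3144 open reading frames (ORFs) whose transcript leader was called in both S288C replicates of TL-seq, 476 (15.1%) had a mean leader length of 100 nucleotides (nt) or more. TL-seq sequences capped 5′ ends, and a leader is the stretch of mRNA between the cap and the start codon. The 476 long-leader ORFs were chosen by the mean of these 2 replicates, out of 4551 ORFs with a call in any of the 11 libraries. Their S288C lengths are therefore given as a description, and only libraries that did not define the set bear on it. These were 1 TL-seq library of Sigma 1278b (MAT a, with ura3, leu2, trp1 and his3 mutations), its control without pyrophosphatase, and TATL-seq, the same method applied to 7 fractions of a polysome gradient labelled BY4742 (Mat α, with deletions in HIS3, LEU2, LYS2 and URA3). The labels give S288C as the strain of the 2 replicates, and all cultures were in mid-log phase in rich medium with glucose. Pyrophosphatase removes the cap so that an adaptor can be ligated, and the control shows which ends were captured without it.

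In yeast the small ribosomal subunit binds near the cap and scans along the leader to the first suitable AUG. Most leaders in this organism are short. Long ones leave room for upstream reading frames, RNA structure and binding proteins, and well-studied cases such as GCN4 and CLN3 are regulated at the level of translation.

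The libraries held between 204 and 3561 ORF calls, the fewest in the control, and 13.5% to 20.8% of the ORFs called in a fraction had 100 nt or more. Each file gives 1 length per gene and no reads, so the depth behind a call is unknown. A missing call can stem from low expression, depth or the authors' filters, and these cannot be told apart. Both S288C replicates called the α-specific genes MF(ALPHA)1, MF(ALPHA)2 and SAG1 and no a-specific gene, and Sigma called the a-specific genes MFA1, MFA2 and AGA2 and no α-specific gene. In the fractions, mating-type genes went partly against the label. STE2, for the α-factor receptor of a cells, was called at 26 nt in all 7 fractions labelled Mat α, whereas MF(ALPHA)1 and SAG1 were called in none and MF(ALPHA)2 in 6. The a-specific AGA2 was called in 5 fractions, MFA2 in 3, MFA1 in 2 and ASG7 in 1, and the α-specific STE3 in 1. AGA2 had 51 nt in Sigma and 51 or 63 nt in the fractions, and MFA2 had 40 nt and 37 or 40 nt. Of the marker genes, TRP1, mutated in Sigma by its label, was called at 6 nt in fractions 5 and 7 and not in Sigma. HIS3, deleted by the label of the fractions and mutated by that of Sigma, was called in none of these libraries. Whether the fractions and Sigma share a strain was not tested. Results on the fractions are therefore those of libraries labelled BY4742, and the Sigma values beside them do not rest on that label.

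The median long leader was 155.5 nt, with quartiles of 122 and 209 nt, against a median of 36 nt in the other 2668 ORFs. A length of 300 to under 500 nt was seen in 37 of the 476, and 18 reached 500 nt. The replicates gave the same length for 345 (72.5%), a share that was not counted over all ORFs. They differed by at most 10 nt for 413 (86.8%), where 88.1% of all 3144 ORFs did so. In 12 ORFs only 1 replicate reached 100 nt. The widest gaps between replicates were in COS10, with 10 and 544 nt, and YEF1, for an NADH kinase, with 5 and 215 nt. For COS10 Sigma and the 1 fraction with a call gave 527 nt, the longer of these forms. At the threshold, FEN2, GRE3, and HYM1 lay just inside with 100 nt in both replicates. HOM3 with 96 and 103 nt, PYK2 with 100 and 99 nt, and BYE1 with 99 nt in both lay just outside.

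Long leaders were common among genes that sense and transmit signals. In the list of Ras, protein kinase A, TOR and Snf1 signalling, 7 of 13 ORFs had 100 nt or more, with a list median of 109 nt against 41.5 nt over all ORFs in both replicates. BMH2, for a 14-3-3 protein that binds phosphorylated partners, had 893 nt in both replicates and 885 nt in the 1 fraction where it was called. SNF1, the kinase needed for growth without glucose, had 282 nt in both replicates and a TATL-seq median of 284 nt over all 7 fractions. Its activating subunit SNF4 had 122 nt in both replicates and 117 to 129 nt in the fractions. The protein kinase A gene TPK2 had 163 and 225 nt in the replicates, and Sigma and the TATL-seq median gave 178 nt, between these. TPK3 had 155 nt in both replicates and 175 nt in Sigma and as the TATL-seq median. BCY1, for the inhibitory subunit of this kinase, had 109 nt in both replicates and 93 to 106 nt in the fractions.

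The MAP kinase list gave 7 of 12, with a median of 145 nt. HOG1, the osmotic stress kinase, had 348 nt in both replicates and no call elsewhere. Its activating kinase PBS2 had 222 nt in both replicates and 206 nt in 1 fraction. The upstream regulator SSK1 had 180 and 176 nt, and 181 nt as the median of 5 fractions. The tyrosine phosphatases PTP2 and PTP3, which switch this kinase off, had 167 nt in both replicates and 153 and 143 nt, in this order. MKK1, a kinase of the cell integrity pathway, had 142 nt in both replicates and a median of 94.5 nt over 2 fractions, so it was not long by that median.

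Among transcription factors 15 of 29 had long leaders, with a list median of 104 nt. GCN4, the activator of amino acid synthesis whose translation is set by upstream reading frames, had 572 and 567 nt. The stress factor MSN2 had 430 nt in both replicates and a median of 377 nt over 3 fractions. SKN7 had 293 nt and SOK2 225 nt in both replicates, and RGT1, a repressor of glucose transporter genes, had 236 and 237 nt. GCN4, SKN7, SOK2, RGT1 and GCR2 had no call outside S288C TL-seq. Sigma called 2 of the 15, where it called 36.3% of all long-leader ORFs and 47.5% of all ORFs in both replicates. These were PDR1 at 127 nt and REB1 at 87 nt, against 131 and 150 nt in both S288C replicates. REB1 had 121 or 130 nt in 4 fractions. TATL-seq called 9 of the 15, against 79.4% of all long-leader ORFs. Its median was 100 nt or more for 8 of the 9, against 81.2% of the long-leader ORFs called. In the cell cycle list 6 of 16 were long. The mitotic cyclin gene CLB2 had 350 nt in both replicates and 302 to 357 nt in 6 fractions. SWI5, a factor for genes of late mitosis, had 165 and 166 nt, 178 nt in Sigma and a TATL-seq median of 165 nt.

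At the cell surface, 12 of 25 cell wall genes were long. They ranged from SCW4, at 108 nt, to SUN4, which acts in the separation of cells, at 554 nt. The pressure sensor gene WSC2 had 352 nt, the glucan synthase gene FKS1 258 nt and the chitin synthase gene CHS1 162 nt, each the same in both replicates. TOS1 was longer in TATL-seq, with a median of 235 nt over 5 fractions against 137 nt in both replicates. In ion transport 7 of 17 were long, among them the polyamine transporter gene TPO3 at 295 nt and the copper transporter gene CTR1 at 178 nt. TPO3 had 286 nt in Sigma, and CTR1 had no call elsewhere. In amino acid transport 6 of 18 were long. CAN1, the arginine permease gene, had 232 nt in both replicates and 231 and 114 nt in 2 fractions, and HIP1, for histidine uptake, had 202 nt in both replicates and in 1 fraction. In cell polarity 7 of 21 were long, with BUD9 at 359 nt and a TATL-seq median of 357 nt over 7 fractions.

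Genes for mRNA-binding and decay factors gave 10 of 29. WHI4 had 365 nt in both replicates and a median of 363 nt over 3 fractions. PUF3, whose protein binds mRNAs for mitochondrial proteins, had 273 and 272 nt and no call elsewhere. NRD1, for a termination factor that binds RNA, had 273 nt in both replicates and a median of 275 nt over 7 fractions. VTS1 was less settled, with 141 and 95 nt in the replicates and 95 nt in Sigma and as the TATL-seq median.

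Thiamine genes gave 3 of 8, among them the 2 longest leaders of any list. THI72, for a transporter, had 1115 and 1121 nt, 1089 nt in Sigma and a median of 1096 nt over 5 fractions. THI22 had 1035 nt in both replicates and 669 nt in 1 fraction. The respiration list gave 6 of 31 (19.4%), near the 15.1% over all ORFs in both replicates. Its longest was NDE1, for a mitochondrial NADH dehydrogenase, at 204 nt.

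The machinery of protein synthesis showed few long leaders. None of 11 elongation and termination factors reached 100 nt. The count was 1 of 51 for ribosome biogenesis factors, RRP5 at 103 nt, and 1 of 52 for mitochondrial ribosomal proteins, MRPL7 at 143 nt. It was 2 of 25 for initiation factors and 5 of 118 for cytosolic ribosomal proteins. All 5 of the long ribosomal protein genes had at least 366 nt in both replicates, and the list median was 24 nt. Where these 5 had a paired copy, that copy was short in S288C TL-seq. RPS8B had 378 nt in both replicates, 376 nt in Sigma and 362 to 386 nt in the fractions, while RPS8A had 29 nt in both replicates and 17 nt in Sigma and in all 7 fractions. RPS22B had 601 nt in both replicates and 570 to 576 nt in 5 fractions, against 17 nt in both replicates for RPS22A. RPS26B had 383 nt in both replicates and 380 and 435 nt in 2 fractions, against 24 nt for RPS26A. RPS25 differed: RPS25B had 469 nt in both replicates and 470 to 475 nt in the fractions, and RPS25A had 35 nt in both replicates but 351 nt in Sigma and 327 to 362 nt in 6 fractions. Other ribosomal protein genes outside the 5 were also long elsewhere. RPL24B had 30 nt in both replicates, 430 nt in Sigma and 399 to 430 nt in 7 fractions. RPL24A had 34 nt in both replicates and a median of 491 nt over 3 fractions. For RPS6A these were 30 nt and a median of 146 nt over 5 fractions. The sources used here do not state whether introns ahead of the start codon are counted in these lengths, or how reads shared by paired copies were assigned. Among the chromatin proteins, none of 11 histones reached 100 nt.

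**Figure D1:**
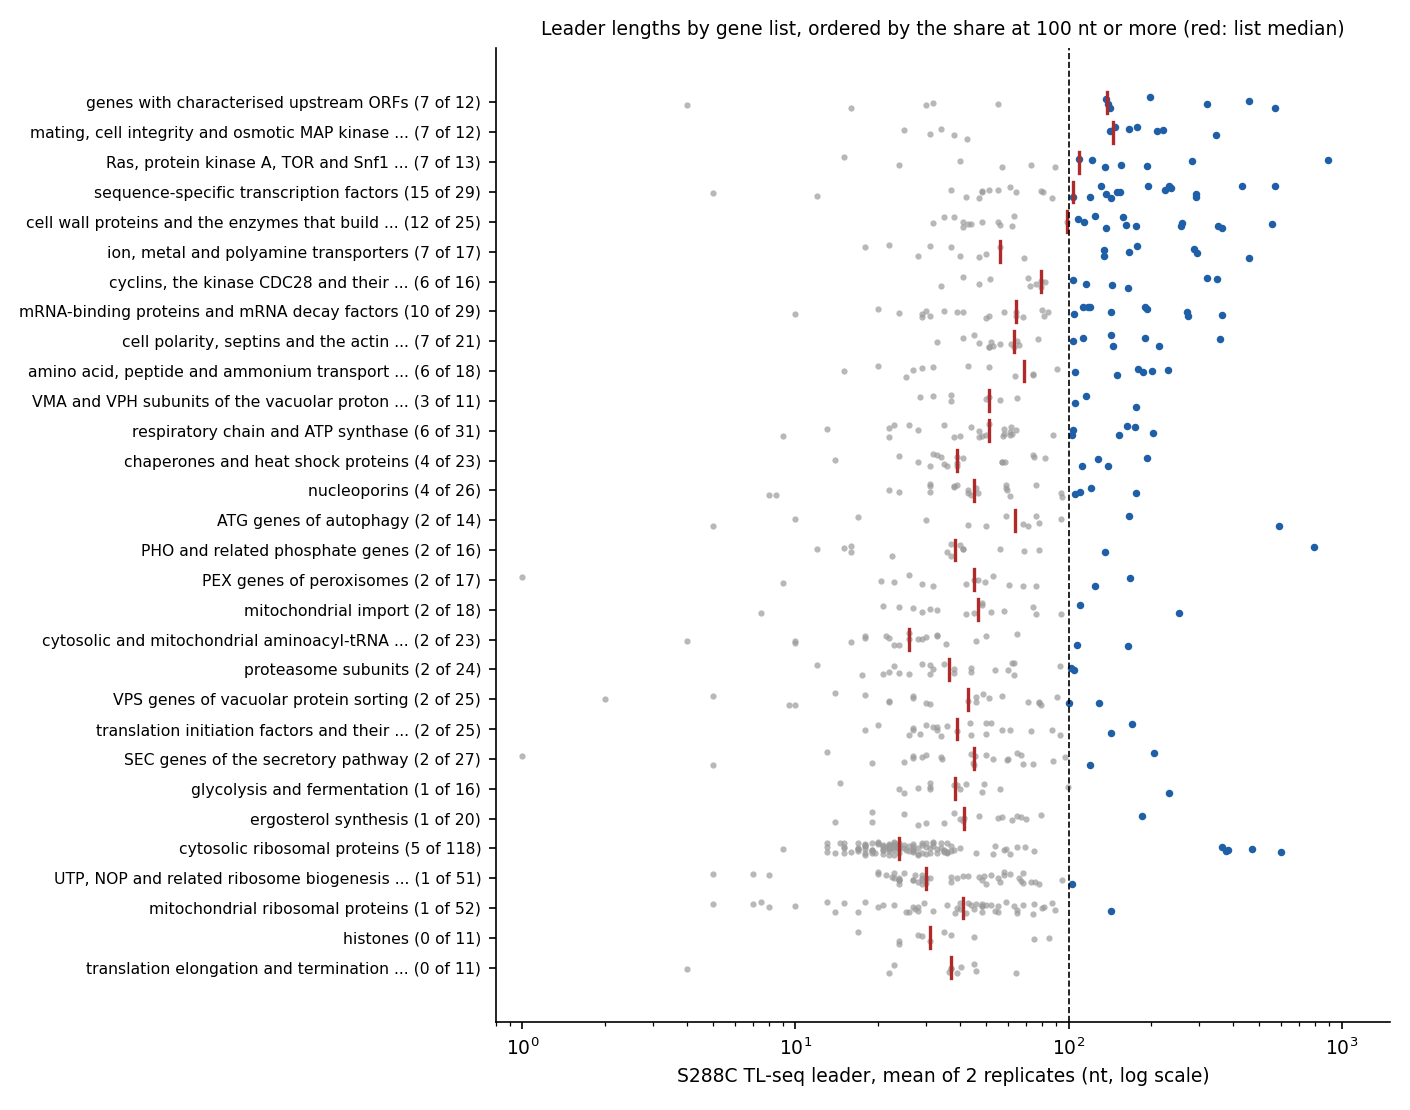
Leader length of each ORF (points, mean of 2 S288C replicates in nt, log scale) in the 30 gene lists with at least 10 ORFs in both replicates, ordered by the share at 100 nt or more. Blue points are long-leader ORFs, grey points the others, red ticks list medians and the dashed line 100 nt. Genes with characterised upstream reading frames, a list drawn up because of such leaders, stand at the top with the MAP kinase list, at 7 of 12 each. The other signalling list and the transcription factor and cell wall lists follow. Elongation factors and histones, with 0 of 11 each, stand at the bottom.

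Of the 30 lists with at least 10 ORFs, 14 had a larger share of long leaders than the 15.1% over all ORFs. Lists near that share included respiration with 6 of 31, chaperones with 4 of 23, nucleoporins with 4 of 26 and autophagy with 2 of 14. Genes with characterised upstream reading frames gave 7 of 12, but GCN4, CLN3, HOL1, MKK1 and YAP1 among them are also in other lists, and the list was drawn up because of such leaders. The lists hold 127 of the 476 long-leader ORFs and 757 of all 3144 ORFs in both replicates. Of the 476, 29 (6.09%) have only a systematic name, as do 6.56% of the other ORFs in both replicates. The median span of the long-leader ORFs was 1581 nt, against 1146 nt for the others.

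Libraries outside the S288C replicates gave a long leader for 314 of the 476 ORFs, in Sigma, in the TATL-seq median or in both. Sigma called 173 (36.3%, exact 95% interval over ORFs 32 to 40.8), against 47.5% of all ORFs in both replicates. Of these 173, 135 (78%) had at least 100 nt in Sigma, where the share over all ORFs called in Sigma and in both replicates was 11.1%. The fractions called 378 (79.4%) at least once, against 81.2% of all. The TATL-seq median over the fractions with a call was 100 nt or more in 307 of the 378 (81.2%, exact 95% interval 76.9 to 85), against 14.8% over all. A further 70 ORFs were called in Sigma or TATL-seq and were long in neither, and 92 were called in neither. The counts of 314, 70 and 92 were not made over all ORFs, so they describe the set only. The exact intervals cover the counting of ORFs only, which share a library and are no replicates.

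The share that was long elsewhere was lowest where the S288C mean lay just above 100 nt. In the class nearest to 100 nt, 57 of 105 ORFs (54.3%) were long in TATL-seq and 29 of 53 (54.7%) in Sigma. With 150 to under 200 nt it was 91.8% of 97 and 95.7% of 47. With 200 to under 300 nt 59 of 60 were long in TATL-seq and 23 of 23 in Sigma. At 300 nt or more the shares were lower again, with 39 of 41 (95.1%) and 13 of 16 (81.2%). Of the 71 ORFs whose TATL-seq median fell under 100 nt, 39 had 80 nt or more and 17 had less than 50 nt. The TATL-seq median lay at least 10 nt below the S288C mean in 182 ORFs (48.1%, against 33.3% over all) and at least 10 nt above it in 46 (12.2%, against 13.5% over all). The median difference from the S288C mean was -9 nt for the long-leader ORFs and -5 nt over all ORFs in both replicates. A set picked for high S288C values tends to lower values elsewhere by that choice, and the choice, the strain and the method cannot be told apart here.

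**Figure D2:**
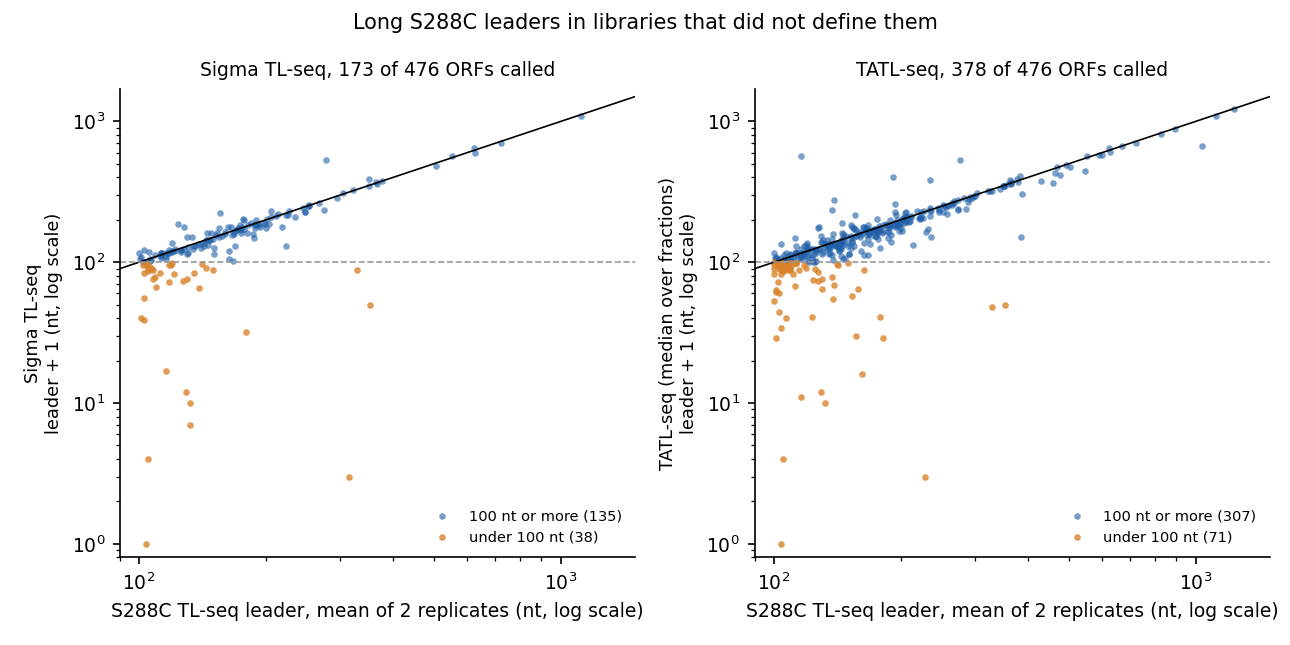
Leader length in Sigma TL-seq (left, 173 ORFs) and as the TATL-seq median (right, 378 ORFs) against the S288C mean, all in nt on log scales, with 1 nt added on the vertical axis. Each point is 1 long-leader ORF, the line marks equal lengths and the dashed line 100 nt; most points follow the line, and those under 100 nt (orange, 38 and 71) gather at S288C lengths close to the threshold.

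The exact length was rarely shared with S288C TL-seq. The Sigma length lay within 10 nt of the S288C mean in 82 of 173 long-leader ORFs (47.4%, against 58.4% over all) and equalled replicate 1 in 2 of them. The TATL-seq median lay within 10 nt of the S288C mean in 164 of 378 (43.4%, against 56.4% over all). This share also differed with length below the threshold. It was 74.7% for S288C means under 12 nt and 50.5% for 50 to under 100 nt. Sigma and the TATL-seq median, in contrast, lay within 10 nt of each other in 133 of the 167 called in both (79.6%, against 82.5% over all) and were identical in 74. Per fraction, 29.5% to 52.8% of long leaders called there and in Sigma had the same length, and 1.53% to 3.4% equalled S288C replicate 1. The other ORFs gave 34.5% to 53.3% and 2.32% to 3.02%, so this was no trait of long leaders. In 59 of the 167 (35.3%, against 25.1% over all) Sigma and TATL-seq agreed within 10 nt and both lay over 10 nt from S288C TL-seq. S288C TL-seq was sequenced on a HiSeq and the rest on a Genome Analyzer II, per the labels' protocols, and strain, sequencer and calling cannot be told apart here.

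For 29 long-leader ORFs whose replicates differed by at most 10 nt, Sigma and all 7 fractions were called and every call lay within 10 nt of the S288C mean. The same was not counted over all ORFs, so 29 describes the set only. The longest was SUN4, with 554 nt in both replicates and 564 nt in Sigma and every fraction. WSC2 had 352 nt in both replicates and 348 nt in Sigma and every fraction. CLN3, the cyclin that starts the cell cycle, had 322 nt in both replicates, 325 nt in Sigma and 321 nt in every fraction but fraction 6, which lay 2 nt higher. AGC1, for the mitochondrial aspartate and glutamate carrier, had 211 nt in both replicates, 212 nt in Sigma, 220 nt in fractions 1 and 3 and 212 nt in the others. GDH2, for glutamate dehydrogenase, had 201 nt in both replicates, 203 nt in Sigma, 198 nt in fraction 1 and 203 nt in the others. PPH3, for a protein phosphatase, and ECM33, for a cell wall protein, had 189 and 177 nt in both replicates, and 184 and 172 nt in Sigma and every fraction. PTI1 is also among the 29, but its call without pyrophosphatase, which the choice of these 29 did not use, was 43 nt against 135 nt in both replicates.

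At the other end, 7 long-leader ORFs with close replicates had fewer than 50 nt both in Sigma and in the TATL-seq median. Shifts of this size were not counted over all ORFs. GPC1, for an enzyme that acylates glycerophosphocholine, had 355 and 351 nt in the replicates, 49 nt in Sigma and 45 to 49 nt in fractions 2 to 7. RPT3, for a proteasome ATPase, had 105 nt in both replicates and 3 nt in Sigma and every fraction. MRX21 had 104 nt in both replicates and 0 nt in Sigma and every fraction. CTF19, for a kinetochore protein, had 179 nt in both replicates and 188 nt in fraction 1, but 31 nt in Sigma and 40 to 50 nt in fractions 2 to 7. In CTF19 fraction 1 sided with S288C TL-seq and every other library gave the short form. AIM7 had 129 nt in both replicates and 11 nt elsewhere, and RNH1, for ribonuclease H, had 116 nt in both and 10 or 16 nt elsewhere.

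**Figure D3:**
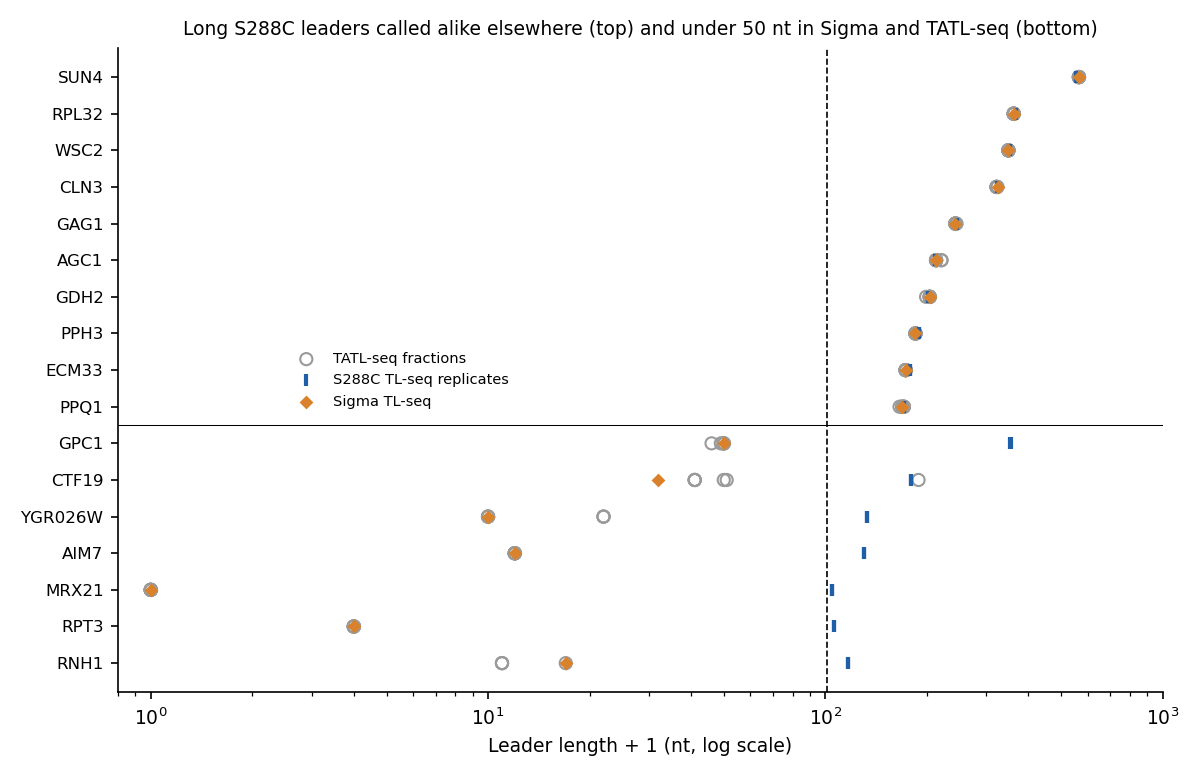
Leader length in each library (nt plus 1, log scale) for the 10 longest ORFs called alike in S288C, Sigma and all 7 fractions (top) and the 7 ORFs under 50 nt in Sigma and in the TATL-seq median (bottom). Blue ticks are the 2 S288C replicates, orange diamonds Sigma, grey circles the fractions with a call and the dashed line 100 nt; in the upper rows all symbols coincide, and in the lower rows only the S288C ticks, and fraction 1 for CTF19, lie beyond the line.

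The 92 ORFs with no call outside S288C TL-seq included some of the longest leaders. Such ORFs were not counted over all ORFs. A call in at least 1 fraction was found for 79.4% of long-leader ORFs and 81.2% of all. For Sigma these shares were 36.3% and 47.5%. VAC7, for a regulator of a vacuolar phosphoinositide, had 1118 nt and PHO81, for the inhibitor of the phosphate-responsive kinase, 793 nt. The acetyl-CoA carboxylase gene ACC1 had 596 nt, the subtelomeric YRF1-1 411 nt and WHI2 405 nt. SKO1, a factor acting with HOG1, had 345 nt, YJL213W 344 nt and MMR1, for an adaptor that carries mitochondria to the bud, 321 nt. Each of these 8 had the same length in both replicates. For them the S288C length has no second source in these data.

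The gradient was used to place leaders by ribosome load, though the labels do not say which fractions were light. Each fraction called 235 to 262 of the 476 long-leader ORFs, and 127 were called in all 7 (26.7%, against 34.5% of all). In fraction 1 the call rate was 53.2% for long-leader ORFs and 51.2% for the other ORFs in both replicates. In fraction 4 it was 49.4% against 62.9%, and in fraction 7 55% against 63%. Long-leader ORFs were called less often in 6 of 7 fractions, with a mean difference of -8.67 ± 5.37 percentage points (SD, n = 7; exact sign-flip permutation test over fractions, two-sided, p = 0.0312, adjusted p = 0.0312 over 2 tests, smallest possible p = 0.0156). The fractions are slices of 1 gradient, so p covers the spread between slices only. With 1 fraction left out the difference stayed between -10.4 and -7.87 points, and p was 0.0312 without fraction 1 and 0.0625 without each of the others, where 0.0312 is the smallest possible. Abundance of these mRNAs is unknown, and its part in the call rate was not tested.

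Among the long-leader ORFs called in a fraction, the share with at least 100 nt there stayed between 79.4% in fraction 2 and 83.4% in fraction 1. Fraction 1 differed in the ORFs outside the set. It called 433 ORFs at 100 nt or more, of which 222 were not among the 476, and the other fractions called 331 to 372, of which 136 to 168 were not. Of the other ORFs in both S288C replicates, 60 (4.39% of those called) were long in fraction 1, against 1.66% to 2.44% in fractions 2 to 7.

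**Figure D4:**
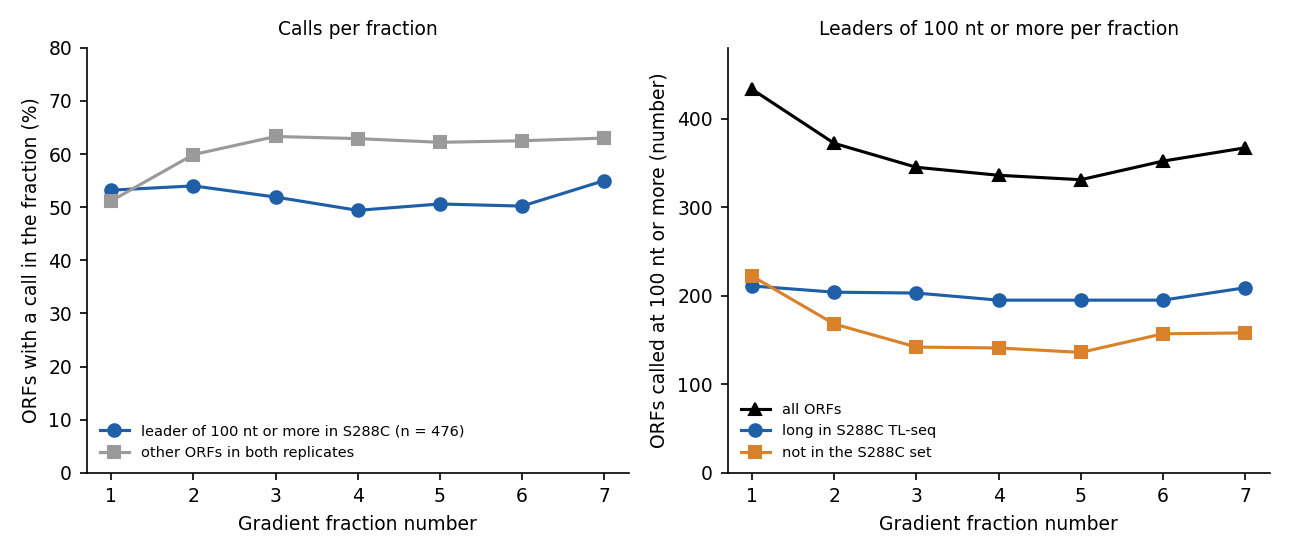
Share of ORFs with a call in each gradient fraction (left, %, long-leader ORFs in blue and other ORFs in both replicates in grey) and number of ORFs called at 100 nt or more (right, all ORFs in black, split into those of the S288C set in blue and the rest in orange). Blue lies below grey in fractions 2 to 7, and the orange line is highest in fraction 1, at 222 ORFs.

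Lengths of a long leader mostly held across fractions. Of 209 long-leader ORFs called in at least 5 fractions, 59 kept a single length and the ranges had a median of 6 nt, against 4 nt over all ORFs in both replicates. A range of 10 nt or more was seen in 80 (38.3%, against 31.2% over all), and 18 had calls on both sides of 100 nt. Single lengths and calls on both sides of 100 nt were not counted over all ORFs, so 59 and 18 describe the set only. Calls that lay 10 nt or more from the median of the same ORF in the other fractions were more frequent in the long-leader ORFs by 2.71 ± 2.96 percentage points (SD, n = 7 fractions; exact sign-flip permutation test, two-sided, p = 0.0312, adjusted p = 0.0312). This held in 6 of 7 fractions. It was widest in fraction 3, with 16.9% of 189 calls against 8.55% of 1415, and in fraction 5 it turned, with 5% against 5.86%. Leaving out any fraction but fraction 5 gave p = 0.0625 (exact permutation), where 0.0312 is the smallest possible with 6 fractions, and the difference was smallest without fraction 3, at 1.76 points. Counting calls 20 nt or more from the median gave 1.05 points (exact permutation p = 0.0156). A fixed distance in nt bears unequally on long and short leaders. Of the ORFs in both replicates, 240 had a mean under 12 nt, which leaves little room for a call 10 nt below the median. Length thus limits this comparison and that of the ranges, and its part was not tested.

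In the ORFs with the widest ranges single fractions often stood apart. For YHR022C fractions 1 and 3 gave 305 nt, fraction 4 gave 134 nt, as both S288C replicates did, and fractions 5 and 7 gave 12 nt. SKI6, for a subunit of the RNA exosome, was called at 1 nt in fraction 1, and its 4 other calls lay between 109 and 116 nt. KNH1 was called at 96 nt in fraction 6, against 167 nt everywhere else in the gradient. COX11, for a copper chaperone of cytochrome oxidase, had 105 nt in fraction 1, 137 nt in fraction 2, 169 nt in fraction 3 and at most 157 nt in the rest. PSR1 was longest in fraction 6, at 243 nt, and next in fraction 2, at 216 nt, with 186 or 192 nt elsewhere in the gradient. IMD3, for an enzyme of GTP synthesis, was shortest in fraction 6, at 81 nt, and next in fraction 2, at 99 nt, with up to 138 nt in the 4 remaining calls. Fraction 6 held the lowest call of KNH1 and IMD3 and the highest of PSR1, and fraction 1 held the lowest call of SKI6 and COX11.

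A steady rise or fall with fraction number could hardly be detected in this design. With 7 fractions the smallest possible p is 0.000397, and at least 7 ORFs would have to reach it for any to pass the adjustment. Of the 127 long-leader ORFs called in all 7 fractions 37 had 1 length, and 90 were tested by Spearman correlation against all orders of the fractions. None rose or fell at an adjusted p under 0.05 (Benjamini-Hochberg over the 795 ORFs tested, of which 0% rose and 0% fell), and the smallest adjusted p was 0.7. Without adjustment 7 of the 90 lay under 0.05 (4 rising and 3 falling, exact permutation), against 36 of the 795. One of the 7, HRD1, for a ubiquitin ligase of the endoplasmic reticulum, went from 130 nt in fraction 1 over 120 and 118 nt to 109, 109, 111 and 109 nt (rho = -0.815, exact permutation p = 0.0381, adjusted p = 0.7).

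In the control without pyrophosphatase 14 of the 476 ORFs were called (2.94%, exact 95% interval 1.62 to 4.89), against 5.53% of all ORFs in both replicates. Of the 14, 11 had 100 nt or more there, where 6.9% of all control calls on ORFs in both replicates did. RPL32 had 361 nt without and with the enzyme. WSC2 had 350 nt without and 348 nt with it. GIN4, for a kinase at the bud neck, had 121 and 122 nt. PSD1, for phosphatidylserine decarboxylase, had 104 nt without and 75 nt with it, LEU5 121 and 142 nt, and YCK1, for a casein kinase, 105 and 120 nt. MCP1 and SSC1, the latter for the mitochondrial Hsp70 chaperone, had 216 and 136 nt without the enzyme and no call with it. PTI1 stood apart with 43 nt without and 130 nt with it, as in the TATL-seq median. YGR026W had 9 nt in both Sigma libraries against 132 nt in both S288C replicates. Of the 11 long-leader ORFs called in both Sigma libraries, 7 had calls within 10 nt of each other with and without the enzyme, against 64.3% of 154 over all, and PSD1, LEU5, YCK1 and PTI1 did not.

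Long leaders were called where there was room upstream of the ORF. The space between an ORF and its upstream neighbour, from the RefSeq annotation of assembly R64 and counting protein-coding ORFs, had a median of 654 nt for the long-leader ORFs and 390 nt for the others. With less than 200 nt of space 2 of 160 ORFs in both replicates had a leader of 100 nt or more, and with 200 to under 300 nt 7 of 744 (0.941%). The share was 10.4% with 300 to under 400 nt, 21.6% with 400 to under 600 nt and 27.6% of 384 ORFs with at least 1000 nt. By the TATL-seq median it was 0.476%, 8.78%, 19% and 31.7% in these last 4 classes. The order of the classes was thus the same by the TATL-seq median. These shares cover only ORFs in both replicates, and 307 of the 377 long by the TATL-seq median were long-leader ORFs. The shares by either measure thus rest largely on the same ORFs, and the TATL-seq order is no independent test. The median leader of all ORFs in both replicates also differed with space, from 21 nt under 200 nt to 54 nt at 1000 nt or more.

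The 5′ ends of long leaders came near the neighbour about as seldom as those of all ORFs. In all, 9 of the 476 lay under 150 nt from the upstream ORF or inside it (1.89%, against 2.61% of all), and 4 reached into it (0.84%, against 0.573% of all). BSP1, with 628 nt in both replicates and 597 nt in Sigma, had 232 nt of space and reached 396 nt into YPR170W-B on the same strand. AAD4, with 723 nt in both replicates and 698 nt in Sigma and as the TATL-seq median, reached 331 nt into YDL242W on the other strand. SIS2, with 166 and 139 nt and 155 nt in Sigma, had 63 nt of space. YGR026W reached 89 nt into YGR025W by its 132 nt in S288C, but not by its 9 nt in Sigma. The 5′ end of HXT4, for a glucose transporter, lay at the border of the divergent AHT1, with 330 nt of leader and 330 nt of space. The neighbour was divergent for 48.7% of long-leader ORFs and 54.5% of the others. The sources used here do not state whether the authors' calling kept 5′ ends away from neighbouring ORFs, and its part in the shares by space was not tested.

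**Figure D5:**
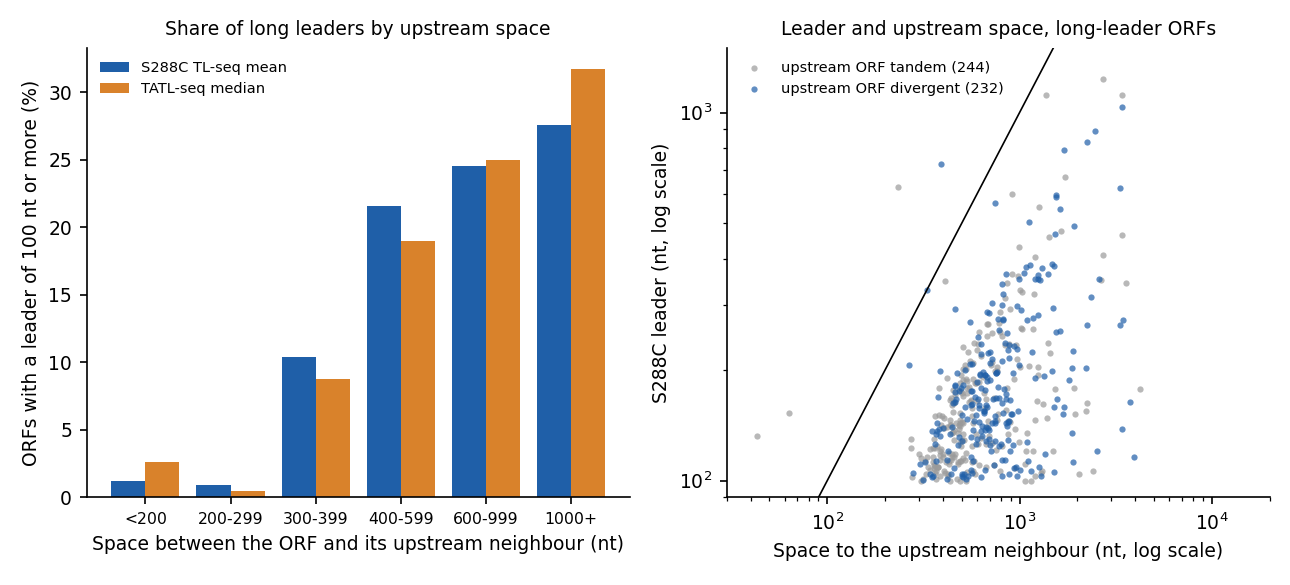
Share of ORFs with a leader of 100 nt or more by the space to the upstream ORF (left, %, by the S288C mean in blue and by the TATL-seq median in orange) and leader length against that space for the 476 long-leader ORFs (right, nt, log scales, grey for a neighbour on the same strand and blue for a divergent one). The line marks a leader as long as the space; the share climbs from 0.941% at 200 to 299 nt to 27.6% at 1000 nt or more, and 4 points lie above the line.

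Long leaders were also called outside the set. Sigma had 241 ORFs at 100 nt or more, of which 106 were not among the 476. Of these, 42 had no call in either S288C replicate, 34 had a call in 1 replicate and 30 had a mean under 100 nt. In 27 of those 34 the single S288C call was also 100 nt or more, and only the need for both replicates kept them out. The TATL-seq median was long for 664 ORFs, and 357 of them were outside the set, 188 with no S288C call. A further 99 had a call in 1 S288C replicate, at 100 nt or more in 71, and 70 had a mean under 100 nt. Sigma and the TATL-seq median were both long for 70 ORFs outside the set, within 10 nt of each other for 55. FRE3, for an iron reductase, had 664 nt in Sigma and in the 1 fraction called, YOR387C 659 nt in Sigma and 653 to 659 nt in 6 fractions, and PHO80, for the cyclin that PHO81 inhibits, 392 nt in Sigma and 388 to 392 nt in 4 fractions. None of these had an S288C call. MRN1, for an RNA-binding protein, had 438 nt in Sigma and 438 or 439 nt in 5 fractions, also with no S288C call. SAC7 had 401 nt in replicate 2 alone and 396 nt in Sigma and every fraction. PPM1 had 25 and 13 nt in the replicates but 372 nt in Sigma and in 4 fractions. PBI2, for a proteinase inhibitor, had 67 nt in both replicates and 413 nt in Sigma and 3 fractions. RPL24B and RPS25A, described above, are also among the 70. Of the 715 ORFs called in a single S288C replicate 193 (27%) had 100 nt or more, a larger share than the 15.1% among ORFs called in both.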

How the data were processed

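The deposited files pair gene names with leader lengths in nt, as the authors called them, and hold no reads or header. Per the submitters' processing notes reads were aligned with Bowtie, with sacCer3 named for the Sigma and TATL-seq libraries. The sources used here do not state the build for S288C TL-seq or the rule that turned reads into a length. Symbols and neighbours came from RefSeq (assembly R64), where each of the 4551 ORFs had an entry; strand was read from the W or C of systematic names. The long-leader ORFs and the 35 gene lists were chosen with earlier results of these data known, and counts for lists have no test. Only protein-coding neighbours were counted, a choice made after seeing the data. Leaders within 10 nt counted as alike, and TATL-seq medians used the fractions with a call. Calls per fraction and calls off the median were compared by exact sign-flip tests over 7 fractions, and trends by Spearman correlation over all orders, tested on simulated data first (Python 3.11.15, numpy 2.4.6, scipy 1.17.1). Named ORFs were the extremes of each comparison among ORFs whose replicates differed by at most 10 nt, and the longest of each list; further list members, replicate pairs far apart, ribosomal protein copies, trend genes, and PTI1 in the control were chosen after their values were seen. The S288C replicates are labelled biological replicates, and every other group is 1 library. Upstream AUGs were not analysed here.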

Additional observations from a re-analysis of the deposited data

How the results depend on the processing

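No paired analysis was possible because only S288C TL-seq has more than 1 replicate. The set held 568 to 587 ORFs when 1 replicate alone decided, 464 with both replicates at 100 nt or more, 413 with replicates within 10 nt of each other, 653 at a threshold of 80 nt and 259 at 150 nt. Long TATL-seq leaders made up 78.8% to 79.2% with 1 replicate left out and 86.5% by the longest instead of the median fraction. The distance allowed moved the shares: within 5 and 20 nt, Sigma lay at the S288C mean for 35.3% and 67.1% and at the TATL-seq median for 62.9% and 89.2%, and ranges over fractions of at least 5 and 20 nt were seen in 55% and 13.9%. At 150 nt, 43 ORFs were long in Sigma and TATL-seq and outside the set. The lower call rate in fractions ranged from -11.2 to -9.99 points with 1 replicate left out, and from -10.4 to -7.87 with 1 fraction left out (added after seeing the data). The excess of calls off the median ranged from 2.67 to 2.93 and from 1.76 to 3.3 points, and was 3.78 at 5 nt, 1.05 at 20 nt, 4.03 with at least 3 fractions and 3.44 with all 7. With RNA genes and pseudogenes as neighbours, 6 leaders in place of 4 reached in (added after seeing the data). No trend passed without fraction 1 or 7, where the smallest possible p is larger still. The alternative for upstream AUGs was not run. The number of reads behind a call is unknown and limits every length.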
